A study of Schizosaccharomyces pombe with 12 samples.

Results

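The comparison described here set dcr1-SHSS, a point-mutant allele of the fission yeast Dicer gene, against wild type, with 3 tiling arrays for each strain. Members were all arrays titled for either strain, 6 of the 12 in the series, and all 5483 annotated features in the deposited table were measured. The labels give the wild-type strain as SPB80 and the dcr1-SHSS strain as SPB776, each by 1 strain number. The remaining arrays, 3 of a dcr1 deletion (dcr1Δ, SPB81) and 3 of a C-terminal truncation (dcr1ΔC33, SPB287), are used only to place the point mutant. All strains are Schizosaccharomyces pombe, a haploid yeast, harvested in growing culture with no treatment named. The labels name no allele other than dcr1 in any strain, so whether the strains differ in auxotrophic markers or reporter insertions is unknown here, and no second isolate of the mutant is named.

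Dicer cuts long double-stranded RNA into small RNAs, which guide the Argonaute-containing RITS complex to nascent transcripts of the centromeric repeats, where heterochromatin is then formed. In fission yeast the protein sits in the nucleus near the nuclear pores, and its C-terminal double-stranded RNA-binding domain carries an extended fold that holds a zinc ion through cysteine and histidine residues. The allele name stands for the replacement of the zinc-binding cysteines by serine. The series addresses what that extended domain does for nuclear retention of Dicer, and the arrays ask which transcripts depend on it.

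Levels are log2 values per array as deposited, so a difference of 1 is a 2-fold change in array signal, and an adjusted p below 0.05 in a limma fit over all 12 arrays is called passing the test. The array medians lay between 11.37 and 11.42, and the median SD of a feature within a strain was 0.07 for wild type and 0.07 for dcr1-SHSS. The 95% interval of a difference between 2 strains reached 0.13 to either side (1.096-fold) in the median feature. The labelled target is double-stranded, so signal from the 2 strands of a locus cannot be told apart. Of the 5483 features, 2313 overlap another measured feature in the gene table.

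The dcr1 gene itself was read first as a check of the labels. Its signal can set the deletion apart, but it cannot tell the point mutant from wild type. Its level was 10.49, 10.57 and 10.60 on the wild-type arrays and 10.67, 10.70 and 10.64 on the dcr1-SHSS arrays. The mutant arrays lay just above the wild-type ones, and the difference of 0.12 ± 0.09 (SE) did not pass the test (adjusted p = 0.304). It turned to -0.05 (adjusted p = 0.632) when each chromosome was centred on its own median. On the dcr1Δ arrays the level was 5.52, 5.80 and 5.37, so the signal of the point mutant was far above that of the deletion (5.11 higher, adjusted p = 9.06e-11). The gene shares bases with spn6, a septin gene used in sporulation, whose own signal rose 2.64-fold (1.40 ± 0.10, adjusted p = 4.56e-06), and the arrays do not separate signal from the shared stretch.

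Between dcr1-SHSS and wild type, 2234 features passed the test, 40.7% of those measured, and 822 were higher (15%) and 1412 lower (25.8%). The 2 directions differed in size. The features that rose had a median change of 0.38 and reached 4.63, while those that fell had a median of -0.23 and reached -1.49, beside a median of -0.06 over all features. A change of at least 1.5-fold was met by 251 features that rose (4.58%) and 18 that fell (0.328%), and a change of at least 2-fold by 116 (2.12%) and 5 (0.0912%). At 4-fold, 32 features rose (0.584%). On 978 features (17.8%) all 3 mutant arrays lay above all 3 wild-type arrays, and on 1786 (32.6%) all 3 lay below. By level, 18.1% of the dimmest 20% of features rose and 14.9% fell, against 11.7% and 23.6% of the brightest 20%.

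**Figure D1:**
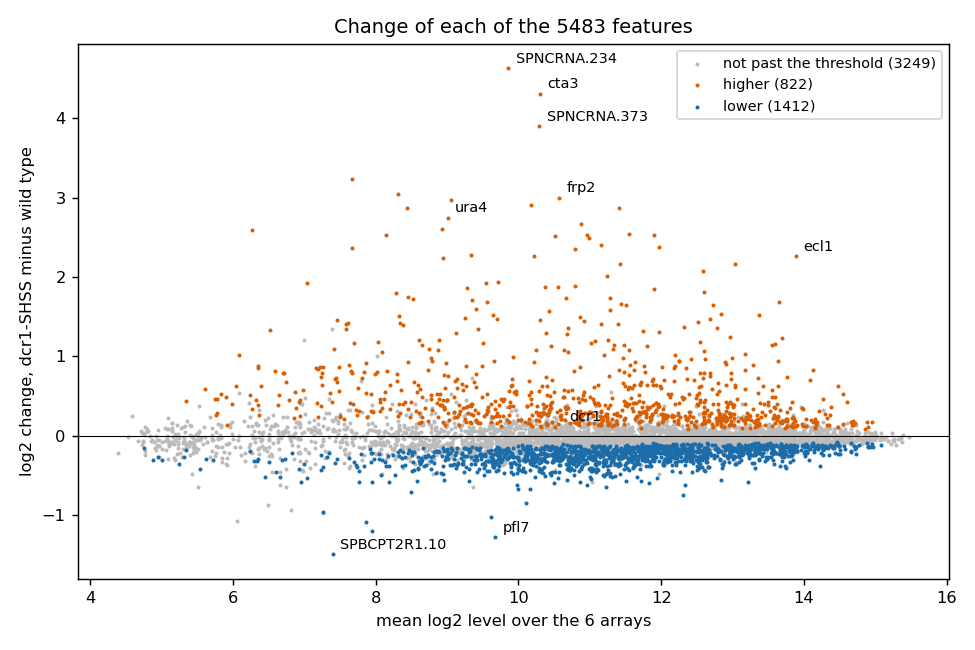
Each point is 1 of 5483 features, with its mean log2 level over the 6 arrays on the x axis and the log2 change of dcr1-SHSS minus wild type on the y axis; orange and blue mark the 822 higher and 1412 lower features. The orange points spread up to 4.63, whereas most blue points lie just under 0 and few pass -1.

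The largest single increase was in centromeric RNA. Dicer acts on transcripts of the pericentromeric repeats, and the gene table placed 13 measured non-coding RNAs in the gene-free intervals around the centromeres, between per1 and emc5, rpb1 and yox1, and meu27 and ppc1. Of these, 4 rose and 0 fell (30.8% and 0%, beside 15% and 25.8% of all features). SPNCRNA.234 was at 8.03, 6.80 and 7.82 in wild type and at 12.12, 12.14 and 12.27 in dcr1-SHSS. The mutant arrays were all far above the wild-type ones, and the rise was 24.7-fold (4.63 ± 0.25, adjusted p = 5.51e-07).

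SPNCRNA.373, in the chromosome II interval, went from 8.12, 8.08 and 8.84 in wild type to 12.15, 12.29 and 12.29 in the mutant, a 14.9-fold rise (3.90 ± 0.18, adjusted p = 1.62e-07). SPNCRNA.232 read 5.80, 5.94 and 6.43 in wild type, each below the 5th percentile of its array, and 9.30, 9.11 and 9.47 in the mutant, 9.45-fold higher (3.24 ± 0.24, adjusted p = 7.62e-06). Its neighbour SPNCRNA.231 was at 6.75, 6.96 and 6.95 in wild type and 9.38, 9.48 and 9.39 in dcr1-SHSS, 5.78-fold higher (2.53 ± 0.11, adjusted p = 1.43e-07). For all 4 RNAs the groups were apart by more than the whole spread within either strain. The other 9 did not pass: their changes ran from -0.64 for SPNCRNA.366 to 0.30 for SPNCRNA.364, and the median over the 13 was 0.02. Because SPNCRNA.231 and SPNCRNA.232 are dim, leaving out the lowest 20% of features removed both, so that 2 remained.

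A second group of large increases came from stress genes. Cells that meet oxidative, osmotic or heat stress switch on a shared set of genes through the Sty1 kinase and the Atf1 transcription factor. Of 24 such core environmental stress genes, 20 rose (83.3%, beside 15% of all features), 0 fell, and the median change was 0.71. The list was chosen with earlier results of these data known, so this share is descriptive only. The median level over the 24 genes was 12.79, 12.62 and 12.78 on the wild-type arrays and 13.81, 13.88 and 13.86 on the mutant arrays. The groups did not overlap, and without any single array at least 18 genes still rose.

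The gene with the largest change among them was cta3, which encodes a cation-transporting P-type ATPase. It was at 8.268, 8.002 and 8.178 in wild type and at 12.31, 12.30 and 12.77 in dcr1-SHSS, 19.8-fold higher (4.31 ± 0.15, adjusted p = 6.86e-08). The non-coding RNA SPNCRNA.319 overlaps it, so its signal cannot be told apart from that locus. The transporter gene caf5 rose 5.77-fold, from 10.69, 10.35 and 10.86 to 13.10, 12.99 and 13.39 (2.53 ± 0.17, adjusted p = 3.59e-06). The metallothionein gene zym1, whose product binds zinc, rose 5.09-fold, from 9.74, 9.65 and 9.46 to 12.12, 12.09 and 11.69 (2.35 ± 0.14, adjusted p = 9.85e-07). For ecl1, which extends chronological lifespan when overexpressed, levels of 13.04, 12.51 and 12.72 became 15.09, 14.93 and 15.04, a 4.8-fold rise (2.26 ± 0.11, adjusted p = 2.96e-07). In each of these genes every mutant array exceeded every wild-type array by at least 1 log2 unit.

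**Figure D2:**
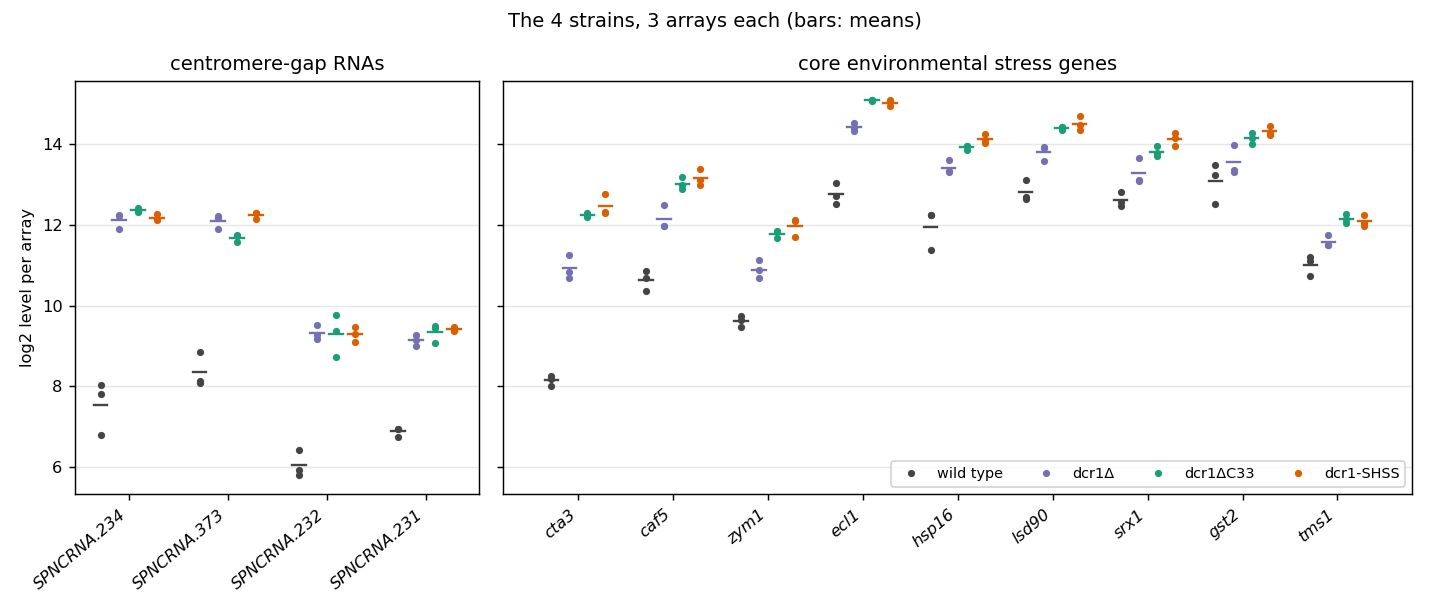
Points are log2 levels on single arrays and bars are means of 3 arrays for each of the 4 strains, for the 4 centromere-interval RNAs that rose and the 9 stress genes with the largest rise. In the left panel the 3 mutants lie together above wild type, with SPNCRNA.234 at 12.18 in dcr1-SHSS and 12.12 in dcr1Δ, while in the right panel dcr1Δ lies between wild type and the other mutants, as for cta3 at 10.93 against 12.46.

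The remaining stress genes changed less. Those for enzymes against oxidative damage included srx1 (sulfiredoxin), 2.87-fold higher, gst2 (a glutathione S-transferase), 2.35-fold, and gpx1 (glutathione peroxidase), 1.49-fold, whereas ctt1 (catalase) was 1.16-fold higher with an adjusted p of 0.0434. The 4 genes that did not pass were psi1 (0.40, adjusted p = 0.0525), tpp1 (0.05), rds1 (0.05) and pyp2 (-0.17). On 13 of the 24 genes wild-type array 2 had the lowest of the 3 wild-type levels, among them hsp16, gst2 and obr1.

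Genes of the kinase cascade that controls this programme showed no such shift. Of 16 members of the Sty1 pathway, 1 rose and 1 fell (6.25% each, beside 15% and 25.8% of all features). The median was 0.01. The riser was atf1, at 12.70, 12.96 and 12.90 in wild type and 13.08, 13.10 and 13.08 in the mutant (0.23 ± 0.07, adjusted p = 0.0248), a call lost when wild-type array 1 or any mutant array was left out. The gene for the kinase kinase wis1 fell by 0.14 (adjusted p = 0.021). That call was lost in 6 alternatives, among them those without wild-type array 2, wild-type array 3 or mutant array 2. Across the alternatives the number of members that rose ran from 0 to 4. It was 4 with the replicate number as a block or without wild-type array 2.

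Chaperone genes rose in part. The lists given here share members with the core stress list, among them hsp16 and ntp1, so their counts are not separate from it. Among 19 heat shock and chaperone genes 7 rose and 1 fell (36.8% and 5.26%, beside 15% and 25.8% of all features). Their median was 0.11. The small heat shock protein gene hsp16 went from 12.25, 11.37 and 12.24 to 14.24, 14.01 and 14.10, 4.48-fold higher (2.16 ± 0.19, adjusted p = 2.66e-05). The Hsp70 gene ssa1 rose 2.23-fold (1.16 ± 0.18), and the disaggregase genes hsp78 and hsp104 rose 1.73-fold and 1.66-fold. Among 18 peroxide defence genes 8 rose and 1 fell (44.4% and 5.56%). The risers included sod1, the copper-zinc superoxide dismutase gene, 1.65-fold higher (0.72 ± 0.07, adjusted p = 5.15e-05). In trehalose and glycerol metabolism 5 of 11 genes rose and 3 fell (45.5% and 27.3%), the share that fell being near that over all features. The number that fell was 1 with the 6 arrays alone, with each chromosome centred, or without wild-type array 1, wild-type array 2 or mutant array 1. The trehalase gene ntp1 was 1.61-fold higher. The gene gut2, for the mitochondrial glycerol-3-phosphate dehydrogenase, was 1.5-fold lower (-0.59 ± 0.18, adjusted p = 0.0266). That call was lost with the 6 arrays alone and without any of those 3 arrays.

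Genes of nutrient supply were among the largest increases outside the stress list. The ferric-chelate reductase gene frp2 had the smallest standard error of the 15 largest increases: 9.034, 9.004 and 9.186 in wild type and 12.10, 12.05 and 12.07 in dcr1-SHSS. The rise was 8.0-fold (3.00 ± 0.06, adjusted p = 2.69e-10), with no overlap. Of 14 genes on the list for iron acquisition and its regulators 5 rose and 4 fell (35.7% and 28.6%, beside 15% and 25.8% of all features). The number that fell was 2 without wild-type array 2 or 3 or mutant array 1, with the 6 arrays alone, or after median centring. The second reductase gene frp1 rose 2.20-fold (1.14 ± 0.28), the siderophore transporter gene str2 1.34-fold and the ferrichrome synthetase gene sib1 1.31-fold. The 4 that fell were pcl1 (-0.357), cuf1 (-0.221), ctr4 (-0.125) and fep1 (-0.112). No reductase, ferroxidase, iron permease, str or sib gene on the list passed as lower. The iron permease gene fip1 and the ferroxidase gene fio1 did not pass, and both had their lowest level on wild-type array 1, where fio1 was at 10.16 against 11.36 and 11.56 on the other wild-type arrays.

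Because the mutated residues bind zinc, the 10 zinc homeostasis genes are given as well. Among them 3 rose and 1 fell (30% and 10%, beside 15% and 25.8% of all features), with a median of -0.03. Besides zym1 the risers were zrt1, a zinc uptake transporter gene, at 12.28, 12.39 and 12.32 in wild type and 12.74, 12.70 and 12.69 in the mutant (0.38 ± 0.05, adjusted p = 0.000227), and loz1, which encodes a zinc-responsive repressor (0.19 ± 0.04, adjusted p = 0.00203). The zrt1 gene shares bases with sir2, and the arrays do not separate signal from the shared stretch. The transporter gene zip3 fell by 0.15 (adjusted p = 0.0378), a call lost in 7 alternatives, among them those without wild-type array 1, wild-type array 3 or any mutant array. Of 7 phosphate genes 1 rose and 2 fell (14.3% and 28.6%, near the shares over all features). The glycerophosphodiester transporter gene tgp1 was 1.35-fold higher and the phosphate transporter gene pho84 1.24-fold lower.

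Glucose-repressed genes moved upward where they moved. Out of 15 genes for hexose transport or glucose-repressed functions, 5 rose and 0 fell, with a median of 0.10. These shares were 33.3% and 0%, beside 15% and 25.8% of all features. The invertase gene inv1 went from 12.26, 11.61 and 11.54 to 13.20, 13.18 and 13.35, 2.71-fold higher (1.44 ± 0.18, adjusted p = 0.000249). The gluconeogenic gene fbp1 rose 2.57-fold (1.36 ± 0.24) and the α-glucosidase gene agl1 1.93-fold (0.94 ± 0.10). Of 14 nitrogen-responsive genes 3 rose and 0 fell (21.4% and 0%). The risers were led by isp6, a vacuolar protease gene, at 12.37, 12.49 and 12.41 in wild type and 13.35, 13.43 and 13.29 in the mutant (1.91-fold, adjusted p = 1.97e-06). Of 63 autophagy and vacuolar sorting genes 14 rose and 6 fell (22.2% and 9.52%). The risers included the sorting nexin gene atg20 (1.77-fold) and atg43, a mitophagy receptor gene (1.56-fold). The 6 that fell numbered 2 when only the 6 arrays were fitted, and 3 with each chromosome centred or without wild-type array 1, mutant array 1 or mutant array 2.

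Pyrimidine genes split. Of 12, 4 rose by more than 2-fold and 5 fell by less than 1.5-fold (33.3% and 41.7%, beside 15% and 25.8% of all features). The uridine ribohydrolase gene urh1 was at 9.67, 9.29 and 9.69 in wild type and 12.27, 12.31 and 12.06 in the mutant, 6.35-fold higher (2.67 ± 0.11, adjusted p = 1.34e-07). The uracil-regulated genes urg1 and urg2 rose 4.21-fold and 2.56-fold. The orotidine decarboxylase gene ura4, a common selectable marker, was at 7.76, 7.36 and 7.79 in wild type and at 10.44, 10.34 and 10.39 in dcr1-SHSS, 6.72-fold higher (2.75 ± 0.10, adjusted p = 6.86e-08). On the dcr1Δ arrays it was at 10.93, 10.80 and 10.85, and on the dcr1ΔC33 arrays at 10.60, 10.47 and 10.62. Wild type thus stood apart from every mutant. A difference at the ura4 locus between wild type and the mutants and a change in transcription of that gene cannot be told apart here. Of the 12 common strain marker genes 6 fell (50%), by at most 0.45, and ura4 was the only one of them that rose (8.33%). The number that fell was 2 with each chromosome centred on its own median. It was 3 without mutant array 1, after median centring or with the 6 arrays alone.

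The 8 thiamine-repressed genes ran both ways, with 1 higher and 5 lower (12.5% and 62.5%, beside 15% and 25.8% of all features). The thiazole synthesis gene thi2 read 11.39, 11.26 and 11.32 in wild type and 13.01, 12.95 and 11.91 in the mutant, so that the third mutant array lay about 1 log2 unit under the others, and the rise was 2.47-fold (1.30 ± 0.25, adjusted p = 0.00249). The transporter gene bsu1 fell by 0.43 (a call lost with the 6 arrays alone and without wild-type array 1 or mutant array 2) and the phosphatase gene pho4 by 0.33. The number that fell was 3 when only the 6 arrays were fitted, and also without wild-type array 1 or mutant array 2.

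**Figure D3:**
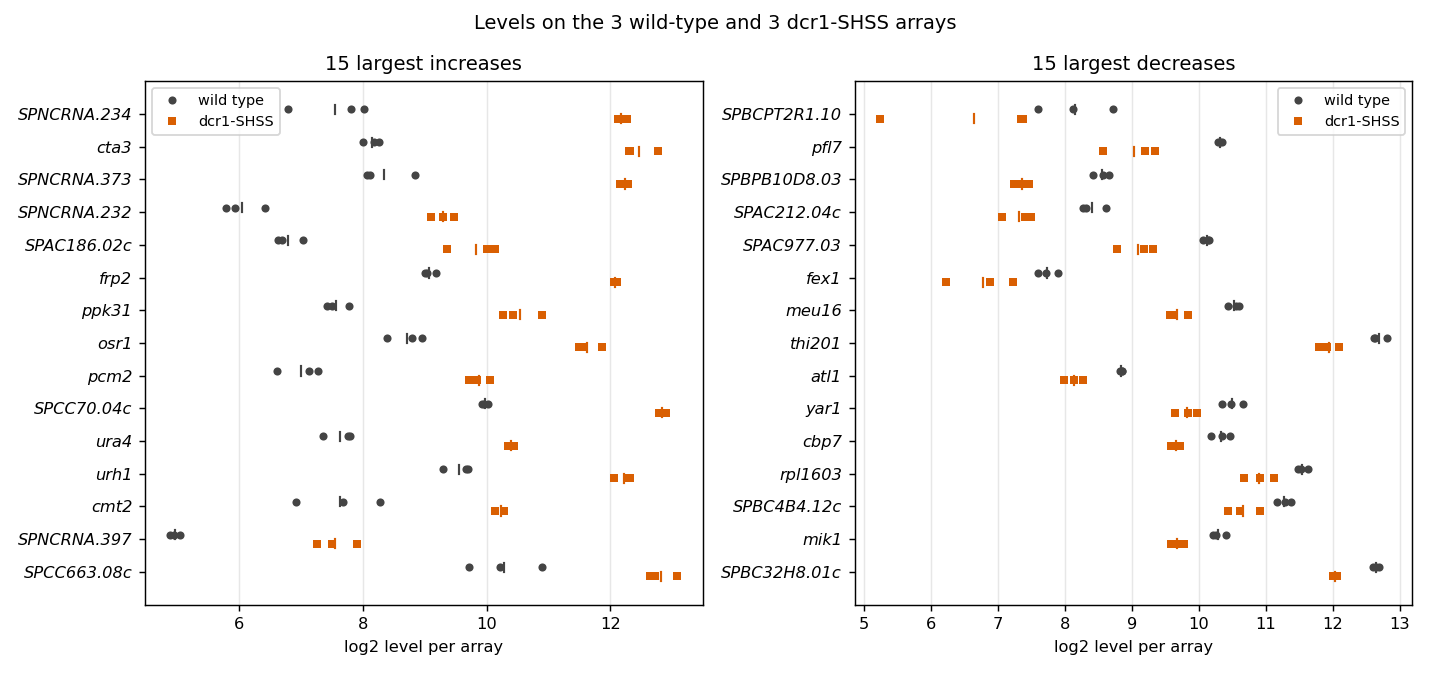
Points are log2 levels on single arrays, circles for wild type and squares for dcr1-SHSS, with short bars at the means, for the 15 largest increases and 15 largest decreases whose arrays did not overlap. In the left panel the strains are far apart on every row, from 4.63 for SPNCRNA.234 to 2.54 for SPCC663.08c, and in the right panel SPBCPT2R1.10 shows 1 mutant array at 5.25 far from the other arrays.

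Other genes among the 15 largest increases were ppk31, for a protein kinase of the Rim15 type (7.81-fold, 2.97 ± 0.16), pcm2, for a protein-L-isoaspartate methyltransferase (7.31-fold, 2.87 ± 0.15), and osr1 (7.53-fold, 2.91 ± 0.17). The non-coding RNA SPNCRNA.397 was at 4.89, 5.05 and 4.96 in wild type, below the 5th percentile of each array, and at 7.91, 7.26 and 7.51 in the mutant (2.59 ± 0.28, adjusted p = 9.04e-05). SPAC186.02c rose 8.22-fold, SPCC70.04c 7.29-fold, cmt2 6.09-fold and SPCC663.08c 5.82-fold. In cmt2 the wild-type arrays were spread from 6.92 to 8.28, and those of SPCC663.08c from 9.71 to 10.90, a wider range than among the mutant arrays.

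Several of the increases lay side by side. Of the 108 placed features that rose at least 2-fold, 33 were in 15 runs of neighbours. The longest runs held 3 features each: eno102, SPBPB21E7.02c and cmt2 (2.51, 1.34 and 2.61), osr1, SPCC663.07c and SPCC663.08c (2.91, 1.15 and 2.54), and cmt1, SPNCRNA.324 and mei3 (1.44, 1.15 and 1.17). The last of these, mei3, encodes the inducer of meiosis. Pairs of a gene and a non-coding RNA included cta3 with SPNCRNA.319, hsp16 with SPNCRNA.540 and lsd90 with SPNCRNA.571. Such pairs can share signal, since the target was labelled without strand.

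Features at the chromosome ends were counted for each end. The subtelomeres are heterochromatic, and Dicer acts there beside other pathways. Among the outermost 30 placed features, 14 rose and 1 fell at the right end of chromosome I (46.7% and 3.33%, beside 15% and 25.8% of all features), and 11 and 4 at the right end of chromosome II (36.7% and 13.3%, though 2 fell there without wild-type array 1 or mutant array 2, or with each chromosome centred). The left ends gave 5 and 6 on chromosome I (16.7% and 20%, though 3 fell without wild-type array 3 or mutant array 2) and 6 and 9 on chromosome II (20% and 30%). Many of these features are dim: without the lowest 20% of features 5 rose at the right end of chromosome I, 5 at the right end of II, 1 at the left end of I and 3 at the left end of II. On the 60 features at the ends of chromosome III 15 rose and 8 fell (25% and 13.3%), but 5 and 24 with each chromosome centred on its own median, and 9 rose without wild-type array 2 and 8 without mutant array 3. Without wild-type array 1 or mutant array 2, 5 fell there. The telomere-linked helicase genes tlh1 and tlh2, standard readouts of subtelomeric silencing, did not pass: tlh1 read 7.85, 6.64 and 7.38 in wild type and 7.51, 7.38 and 6.80 in the mutant (-0.06 ± 0.37, adjusted p = 0.918), and tlh2 changed by -0.41 ± 0.30 (adjusted p = 0.292). Their arrays overlapped, and near-identical copies may share probes.

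The largest decreases included several features at these ends. The flocculin gene pfl7 was at 10.31, 10.35 and 10.28 in wild type and 8.57, 9.35 and 9.20 in dcr1-SHSS, 2.42-fold lower (-1.27 ± 0.15, adjusted p = 0.000196). SPBPB10D8.03 was 2.29-fold lower, SPAC212.04c 2.12-fold and SPAC977.03 2.04-fold, all with no overlap between strains. The pseudogene SPBCPT2R1.10 had the largest fall (-1.49 ± 0.51, adjusted p = 0.0397), but this rested on mutant array 2 at 5.25. Without that array the change was -0.79, and the call was lost then, without wild-type array 1 or 2, and when only the 6 arrays were fitted.

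The fluoride exporter gene fex1 fell by 0.96 ± 0.32 (adjusted p = 0.0372), a call that was lost when any of 5 of the 6 arrays was left out (not mutant array 3). Away from the ends, meu16 fell 1.80-fold, thi201 1.68-fold, and atl1, for an alkyltransferase-like DNA repair protein, 1.63-fold, from 8.85, 8.86 and 8.82 to 8.277, 7.995 and 8.143 (adjusted p = 9.04e-05). The Wee1-related kinase gene mik1, which delays mitosis, fell 1.53-fold (-0.62 ± 0.07, adjusted p = 0.000104).

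The wtf genes, a family of spore-killer elements, rose in 14 of 24 cases with 0 lower (58.3% beside 15% of all features) and a median of 0.31. The named members with the largest change were wtf22, at 9.52, 9.67 and 9.50 in wild type and 10.08, 10.60 and 10.13 in the mutant (0.71 ± 0.18), and wtf18, wtf25 and wtf17 at 0.56, 0.56 and 0.48. The wtf18 call was lost in 7 of 12 alternatives, including those without wild-type array 1, wild-type array 3 or any mutant array. Of the family, 22 lie on chromosome III, and with each chromosome centred on its own median 7 rose. The members are closely related, so probes may mix them. Of 3 Tf2 retrotransposons 1 rose, Tf2-10 by 0.48 ± 0.13 (adjusted p = 0.0133).

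Non-coding RNAs numbered 472, pooling 331 annotated as long non-coding, 32 annotated only as non-coding, and unmatched IDs of the same naming series. Of these, 99 were higher and 36 lower in the mutant, 21% and 7.63% beside 15% and 25.8% of all features, with a median of 0.02. The number that fell was the less stable: it was 64 after quantile normalization, 83 with each chromosome centred on its own median, 16 without wild-type array 1 and 23 without mutant array 2. Without the lowest 20% of features 30 rose and 9 fell. Of 29 pseudogenes 11 rose and 5 fell (37.9% and 17.2%). With each chromosome centred 7 rose, and 3 fell without wild-type array 1 or mutant array 2, or with the 6 arrays alone. The largest rise was SPCC18B5.02c at 4.47-fold, for which the wild-type arrays were 10.65, 9.56 and 10.81.

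Sexual development genes were counted next. Shares near those over all features were found for meiosis: of 23 meiosis and sporulation genes 4 rose and 6 fell (17.4% and 26.1%, beside 15% and 25.8%), with spn6 and mei3 (2.26-fold) higher, isp3, for a spore wall protein, 1.85-fold higher, and spo4, for a meiotic protein kinase, 1.36-fold lower. Of 22 mating genes 2 rose and 5 fell (9.09% and 22.7%). The P-factor gene map2 was 1.38-fold higher and the pheromone signal regulator rgs1 1.34-fold lower, a call lost without wild-type array 2 or mutant array 3. The 5 that fell were 1 without mutant array 3, 2 without wild-type array 2, and 3 without wild-type array 1 or mutant array 1. Of the 91 mug genes, named for upregulation in meiosis, 22 rose and 18 fell (24.2% and 19.8%). Without wild-type array 2, 11 fell. The largest rise was mug147 at 2.77-fold.

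Ribosomal protein genes were lower by small amounts. Of 136 cytosolic ribosomal protein genes 77 fell (56.6%, beside 25.8% of all features) and 0 rose, with a median of -0.14. The median level over the 136 genes was 14.08, 14.12 and 14.05 in wild type and 14, 13.95 and 13.92 in the mutant. The groups did not overlap, but the gap was under 0.2 log2 units, and 45 genes fell when only the 6 arrays were fitted. The largest decreases were rpl1603 (1.56-fold), rps2202 (1.51-fold) and rpp203 (1.45-fold), and only the first 2 exceeded 1.5-fold.

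Of 21 ribosome biogenesis genes 8 fell and 0 rose (38.1% and 0%, beside 25.8% and 15% of all features). The snoRNP gene nop56 was at 12.54, 12.46 and 12.47 in wild type and 12.08, 11.96 and 12.06 in the mutant (-0.46 ± 0.05, adjusted p = 0.000176), and nuc1, for the largest RNA polymerase I subunit, fell by 0.33. Of 12 purine synthesis genes 9 fell (75%, and 5 genes without mutant array 2) and 0 rose. Their changes ran from -0.33 to -0.04, with ade9 1.26-fold lower, a call lost without wild-type array 1 or mutant array 2. Of 60 mitochondrial ribosomal protein genes 14 fell (9 without wild-type array 1) and 2 rose: the share that fell, 23.3%, was close to that over all features, and the share that rose was 3.33% beside 15%. Of 32 proteasome genes 5 rose and 0 fell, and the share of risers, 15.6%, was near that over all features (3 rose without mutant array 3 or with the 6 arrays alone).

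Cell-cycle genes mostly fell by small amounts where they fell. Of 18 G1/S transition genes 10 fell and 1 rose (55.6% and 5.56%, beside 25.8% and 15% of all features). When only the 6 arrays were fitted, 6 fell. The largest fall, and the only 1 of at least 1.5-fold, was that of mik1 (-0.62). The S-phase cyclin gene cig2 was at 12.01, 12.07 and 12.08 in wild type and 11.70, 11.75 and 11.77 in the mutant (-0.31 ± 0.04, adjusted p = 0.000456), and res1, for a subunit of the MBF transcription factor, fell by 0.32. Of 17 mitosis and cell separation genes 10 fell (58.8%) and 0 rose. The glucanase gene agn1 was at -0.33 and slp1, an activator of the anaphase-promoting complex, at -0.23. That count was 5 when only the 6 arrays were fitted, with each chromosome centred, or without wild-type array 3, and 6 after median centring. Of 11 histone genes 2 rose, hht2 for histone H3 by 0.27 and hhf3 for histone H4 by 0.11, and this share, 18.2%, was near the 15% over all features. The hhf3 call was lost with the 6 arrays alone and when any single array of them was left out.

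**Figure D4:**
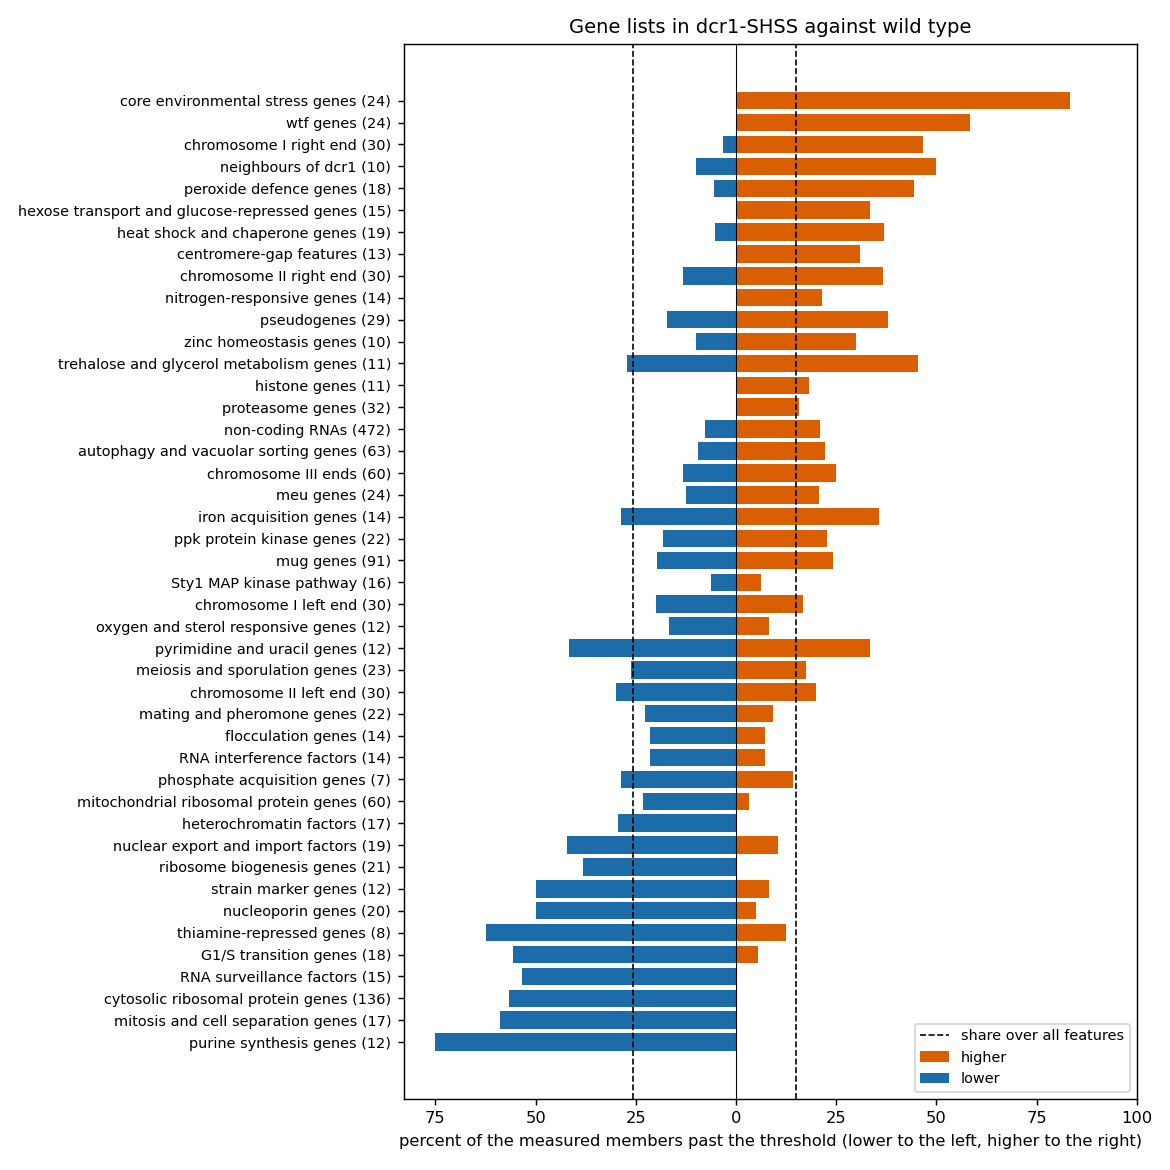
Bars give the percent of the measured members of each gene list (number in brackets) that passed the test, higher to the right and lower to the left, and dashed lines mark the share over all features, 15% higher and 25.8% lower. The core environmental stress genes reach 83.3% on the right, and the cytosolic ribosomal protein genes 56.6% on the left with 0 on the right. The lists were chosen with earlier results of these data known.

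Genes of the silencing machinery were counted in the same way. Of 14 RNA interference factors 1 rose and 3 fell (7.14% and 21.4%, beside 15% and 25.8% of all features), all by less than 1.5-fold. The gene for Stc1, which links RITS to the histone methyltransferase complex, was at 8.97, 8.91 and 9.08 in wild type and 8.59, 8.48 and 8.85 in dcr1-SHSS (-0.34 ± 0.10, adjusted p = 0.0206), a call lost without wild-type array 3, mutant array 1 or mutant array 2, or with each chromosome centred. The gene for Dsh1, a partner of the RNA-directed RNA polymerase and Dicer complex at the nuclear envelope, fell by 0.29 (adjusted p = 0.00431), and eri1, for a nuclease that degrades small RNAs, by 0.19 (adjusted p = 0.00536). The Argonaute gene ago1 was at 11.23, 11.21 and 11.29 in wild type and 11.35, 11.35 and 11.39 in the mutant (0.12 ± 0.03, adjusted p = 0.0184), a difference that turned to -0.05 (adjusted p = 0.381) with each chromosome centred. That call was also lost with the 6 arrays alone and without wild-type array 1, wild-type array 2 or mutant array 3. Changes of the polymerase gene rdp1 (0.03) and the RITS gene chp1 (0.00) did not pass.

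Of 17 heterochromatin factors 5 fell and 0 rose. The share that fell, 29.4%, was near the 25.8% over all features, and 1 fell when only the 6 arrays were fitted or without mutant array 1, 2 without wild-type array 1, mutant array 2 or mutant array 3, and 3 without wild-type array 3 or after median centring. The calls of the deacetylase genes sir2 (-0.30) and clr3 (-0.14) were lost with the 6 arrays alone, with each chromosome centred, and without wild-type array 1 or any mutant array, that of sir2 also without wild-type array 3, and that of clr3 also without wild-type array 2 or after median centring. The sir2 gene shares bases with zrt1, whose own signal rose. Of 15 RNA surveillance factors 8 fell (53.3%) and 0 rose, with the helicase genes mtr4 (-0.30) and mtl1 (-0.24). Without mutant array 2 or when only the 6 arrays were fitted, 5 fell. Because the allele bears on where Dicer sits, transport genes were counted too. Of 19 nuclear export and import factors 8 fell and 2 rose (42.1% and 10.5%, beside 25.8% and 15% of all features). Of 20 nucleoporin genes 10 fell and 1 rose (50% and 5%), the largest change being -0.28 for nup107.

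The genes beside dcr1 were read as a check on the locus. Of its 10 neighbours 5 rose and 1 fell (50% and 10%, beside 15% and 25.8% of all features). The largest change was in spn6. The ubiquitin protease gene ubp5 was at 12.02, 12.03 and 12.07 in wild type and 12.46, 12.39 and 12.50 in the mutant (0.41 ± 0.04, adjusted p = 2.66e-05). With each chromosome centred, 2 rose. On dcr1Δ arrays spn6 was at 8.40, 8.38 and 8.37, between wild type (7.80, 7.46 and 7.80) and dcr1-SHSS (9.18, 8.91 and 9.17).

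Against the deletion, with the same 3 dcr1-SHSS arrays, 1456 features passed the test (26.6%), 485 higher in dcr1-SHSS (8.85%) and 971 lower (17.7%). The count was 750 without dcr1Δ array 1, 937 without dcr1Δ array 2, 968 without dcr1-SHSS array 2 and 908 when only the 6 arrays were fitted. With the replicate number as a block it was 1938. None of the 4 centromeric RNAs above passed: SPNCRNA.234 differed by 0.06 (95% interval -0.49 to 0.61), SPNCRNA.373 by 0.15 (-0.24 to 0.54), SPNCRNA.232 by -0.02 (-0.56 to 0.51) and SPNCRNA.231 by 0.28 (0.03 to 0.52, adjusted p = 0.0851). Among the other centromere-interval RNAs 3 were lower in dcr1-SHSS than in dcr1Δ, SPNCRNA.233 by -0.94, SPNCRNA.481 by -0.77 and SPNCRNA.359 by -0.38, a number that was 1 with the 6 arrays alone or without dcr1Δ array 3, dcr1-SHSS array 1 or dcr1-SHSS array 2. These 3 were 23.1% of the 13, beside 17.7% of all features. All 3 were dim, with mean levels of 4.75, 4.77 and 5.78 in dcr1-SHSS, and the number was 0 without the lowest 20% of features.

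Most of the listed stress genes were higher in the point mutant than in the deletion. Of the 24, 18 were higher in dcr1-SHSS than in dcr1Δ (75%, beside 8.85% of all features) and 0 lower, with a median of 0.47. This share too is descriptive only. The list was chosen with earlier results of these data known, and the dcr1-SHSS arrays are those compared with wild type. Without dcr1Δ array 1, 13 were higher. The level of cta3 on the dcr1Δ arrays was 10.69, 10.84 and 11.26, and the difference was 1.53 ± 0.15 (adjusted p = 0.000232). Higher too were ppk31 (1.54, adjusted p = 0.000232), urh1 (1.52, adjusted p = 4.36e-05) and frp2 (1.24, adjusted p = 8.47e-07). Among features that also passed against wild type the largest was ftm4, at 9.64, 9.97 and 10.33 in dcr1Δ and 11.83, 11.90 and 12.11 in dcr1-SHSS (1.97, adjusted p = 0.000232), whose call against wild type was lost when array 2 or 3 of either strain was left out, followed by cmt2 (1.76), SPAC750.01 (1.66), osr1 (1.59) and SPCC663.08c (1.54).

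Lower in the point mutant than in the deletion were ura4 (-0.47, adjusted p = 0.00883), tlh1 (-1.27, adjusted p = 0.0317), SPAC977.03 (-1.33) and pfl7 (-0.71). The tlh1 signal was dim, at 7.508, 7.38 and 6.798 in dcr1-SHSS and 8.623, 8.925 and 7.947 in dcr1Δ. The related gene tlh2 did not pass here (-0.36 ± 0.30, adjusted p = 0.384), and its arrays overlapped between these strains. Whether subtelomeric silencing differs between the alleles was not tested. SPBCPT2R1.10 differed by -1.90, again with mutant array 2 far under the others. Of the 18 G1/S transition genes 12 were lower and 0 higher (66.7% and 0%, beside 17.7% and 8.85% of all features). Of the 136 cytosolic ribosomal protein genes 49 were lower (36%) and 0 higher. The number lower was 18 without dcr1Δ array 1, 22 without dcr1Δ array 2 and 20 without dcr1-SHSS array 2 or 3. It was 30 after median centring and 16 when only the 6 arrays were fitted.

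Against the C-terminal truncation 8 features passed (0.146%), 3 higher (0.0547%) and 5 lower (0.0912%) in dcr1-SHSS, while 847 (15.4%) had an unadjusted p below 0.05. The median absolute difference over all features was 0.06, against 0.14 between dcr1-SHSS and wild type. The count ranged from 1 to 7 when single arrays were left out: it was 1 without dcr1ΔC33 array 1 or dcr1-SHSS array 2, 2 without dcr1ΔC33 array 3 and 3 without dcr1-SHSS array 1. It was 0 without the lowest 20% of features, 1 with the 6 arrays alone, 2 after quantile normalization and 4 with an intensity trend. That filter took out some of the 8 themselves. Among them was SPAC8C9.04, whose mean level over all arrays lies under the cut of 9.461. A p that misses the threshold does not show equal levels. The 95% interval of cta3 ran from -0.12 to 0.56. For the centromeric RNAs it ran from -0.73 to 0.37 (SPNCRNA.234), -0.53 to 0.54 (SPNCRNA.232) and -0.17 to 0.32 (SPNCRNA.231). That of SPNCRNA.373 left out 0 (0.57, interval 0.18 to 0.95), but the difference did not pass the test (adjusted p = 0.178).

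The difference largest in size was SPAC8C9.04, at 9.71, 9.51 and 9.75 in dcr1-SHSS, 7.30, 7.23 and 7.51 in dcr1ΔC33 and 9.81, 9.68 and 9.78 in wild type. The truncation arrays stood apart there, and dcr1-SHSS was 4.95-fold higher than the truncation (2.31 ± 0.09, adjusted p = 7.19e-07) and did not pass against wild type. The oligosaccharyltransferase gene ost4 followed the same pattern (0.76 against the truncation, 0.09 against wild type). The dcr1-SHSS arrays were lower than both wild type and the truncation for SPAC212.04c (-1.22 against the truncation), the flap endonuclease gene rad2 (-0.34) and mug62 (-0.28). They were higher than both for gon7 (0.35), a gene of the KEOPS complex for tRNA modification. The non-coding RNAs SPNCRNA.177 (-0.55) and prl4 (-0.30) were lower than in the truncation. Both were dim in dcr1-SHSS, at 5.41, 5.25 and 5.45 and at 4.64, 4.69 and 4.69, each below the 5th percentile of its array. The prl4 feature also shares bases with mad2.

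The direction of small changes differed by chromosome, a pattern noticed in the data. The median change of dcr1-SHSS against wild type was -0.07 over 2424 features of chromosome I, -0.10 over 1955 of chromosome II and 0.03 over 978 of chromosome III. On chromosome III 26.2% of features rose and 9.71% fell, against 11.8% and 26.2% on chromosome I and 12.7% and 34.5% on chromosome II. In windows of 50 neighbouring features the median was above 0 in 17 of 19 windows on chromosome III, 1 of 48 on chromosome I and 2 of 39 on chromosome II.

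The difference was present on each array. The median level of chromosome III minus that of chromosomes I and II was -0.05, -0.06 and -0.06 on the wild-type arrays and 0.05, 0.05 and 0.04 on the dcr1-SHSS arrays, after the mean of each feature over all arrays was taken off. The strains differed by 0.11, given without a test because the pattern was noticed in these data. On the dcr1Δ arrays the value was -0.02, -0.01 and -0.02, and on the dcr1ΔC33 arrays 0.04, 0.04 and 0.03. The source of this shift was not tested. The differences of ago1 (0.12), dcr1 (0.12) and the proteasome gene pup3 (0.14), all on chromosome III, were of about the same size, and that of pup3 turned to -0.03 with each chromosome centred.

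**Figure D5:**
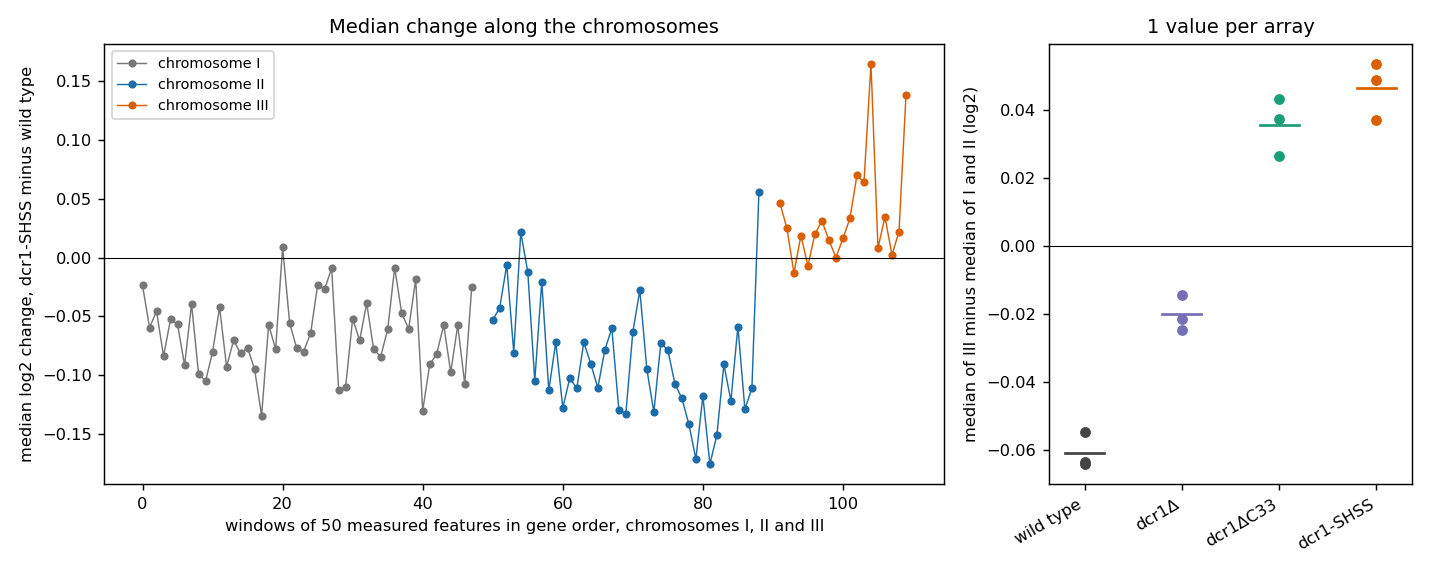
Left, the median log2 change of dcr1-SHSS minus wild type in windows of 50 measured features in gene order, with the windows of chromosome III mostly above 0 (17 of 19) and those of I and II mostly below. Right, for each of 12 arrays, the median of chromosome III minus that of chromosomes I and II; bars are means, and the 3 dcr1-SHSS arrays sit between 0.04 and 0.05, above all wild-type arrays.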

How the data were processed

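Per the labels' protocols, total RNA was extracted with hot phenol and labelled with a double-stranded Affymetrix target assay. The authors deposited log2 levels, 1 per annotated feature and array; R 2.10.0 and the affy package are named per the submitters' processing notes. The sources do not state background correction, normalization, scale, centring, annotation or build, and each of these steps can shrink a change of a dim feature. No detection calls were used, and the number of arrays limits precision. Replicates are the 3 arrays each title numbers within a strain.

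The log2 values were fitted as deposited over all 12 arrays with limma 3.58.1 (R 4.3.3), 1 mean per strain, with empirical Bayes moderation and Benjamini-Hochberg adjustment over all 5483 features. The method was tested on simulated data. Alternatives covered scaling, low features, arrays fitted, moderation, threshold, each array left out, the replicate number as a block, and, added after seeing the data, centring within each chromosome. Same-numbered dcr1-SHSS and dcr1Δ arrays deviated together in all 3 pairs (correlations 0.18, 0.44 and 0.27).

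By locus tag or synonym, 5357 IDs matched the RefSeq gene table (ASM294v3), used for names, chromosome and order only. Its ribosomal genes were taken by symbol. Promoter and protein sequences were not used here.

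The comparison and gene lists were chosen with earlier results of these data known. Named genes were dcr1, the 15 highest and 15 lowest changes that passed without overlap of arrays, up to 4 passing members of each list with the largest change (if none passed, the one with the smallest p), and, among features that passed against wild type, the 5 highest and 5 lowest that passed against each other mutant. Chosen after their values were seen were the other members of the stress, centromere, iron and RNA interference lists, tlh1, SPAC8C9.04, ost4, SPNCRNA.177 and members of neighbour runs.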

Additional observations from a re-analysis of the deposited data

How the results depend on the processing

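Against wild type the count of 2234 kept within 1.5 times under every rescaling, filter and fit, from 1724 with the 6 arrays alone to 2653 with the replicate block. Leaving out single arrays gave 1729 to 2001, with 705 to 742 higher and 1018 to 1293 lower. Stricter thresholds moved it to 1217 (536 higher, 681 lower) at an adjusted p of 0.01 and to 269 (251 higher, 18 lower) with at least 1.5-fold, each by its construction. The main fits used no block because the labels do not say that a number marks a shared batch. Same-numbered wild-type and dcr1-SHSS arrays correlated at 0.09, 0.28 and 0.27. Each dcr1-SHSS array correlated best with the wild-type array of its own number. The block gave 957 higher and 1696 lower against wild type, and a count of 1938 against dcr1Δ. Neither count moved by over 1.5 times.

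The count against dcr1Δ was 908 with the 6 arrays alone, 499 at an adjusted p of 0.01, 146 with at least 1.5-fold, and 750 to 1409 without single arrays. Against dcr1ΔC33 the 8 became 2 after quantile normalization, 1 with the 6 arrays alone and 4 with an intensity trend. They became 1 at an adjusted p of 0.01, 3 with at least 1.5-fold, and 1 to 7 without single arrays. Without the lowest 20% of features the count was 0, and SPAC8C9.04 was among the features taken out. In the limma fit of all features 847 had an unadjusted p below 0.05. With centring within each chromosome dcr1 turned to -0.0545, ago1 to -0.05 and pup3 to -0.0303. The dcr1 difference was 0.083 to 0.139 without single arrays, and it has no value without the lowest 20% of features, which removes it. Over the alternatives for single genes other than dcr1, 2141 values kept direction and side, 147 lost the threshold, 0 gained it and 2 reversed. List counts of 3 or fewer moved by 0 to 3 across alternatives. The causes were not tested. Levels near background limit dim features.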
